A study of Mus musculus with 26 samples.

Results

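CTCF and the cohesin complex form the machinery that folds chromatin into loops, and both have been linked to the chromatin remodeler ATRX. The 10 genes described here encode CTCF (Ctcf), the cohesin ring (Smc1a, Smc3, Rad21, Stag1 and Stag2), its loader (Nipbl) and the factors that release or regulate it (Wapl, Pds5a and Pds5b). They were chosen by name as known partners of ATRX, by a rule that uses no measured value, although earlier results of these data were known. All 10 were found by Ensembl identifier among the 53801 genes of the RNA-Seq files, and all were above the minimum of 5 TPM (a transcript level divided by gene length and library total) in every library that 9135 protein-coding genes reached.

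The cells were female mouse embryonic fibroblasts (MEFs). WT cells carry intact Atrx. ATRXΔRBR cells are a clone in which CRISPR/Cas9 removed the RNA-binding region of the endogenous protein, and ATRX KD cells carry an shRNA against Atrx and were selected with puromycin. RNA-Seq was available in 2 libraries of each genotype. CUT&RUN, in which an antibody directs a nuclease to cut out bound chromatin, was available as peak lists of 2 libraries for each genotype and target: ATRX in WT and ATRXΔRBR, and both EZH2 (the catalytic subunit of Polycomb repressive complex PRC2) and its product H3K27me3 in all 3 genotypes. The study describes the libraries of a genotype as biological replicates, and p-values measure the spread between these 2.

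Cohesin is a ring. SMC1A and SMC3 form a hinged pair of arms, RAD21 closes the ring, and either STAG1 or STAG2 docks on RAD21. NIPBL loads the ring and drives it along DNA so that a loop grows, CTCF bound to its motif halts it, and WAPL together with PDS5A or PDS5B opens the ring and takes it off. The same ring holds sister chromatids together in dividing cells, which fibroblasts in culture are.

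The 6 RNA-Seq libraries held between 9051693 and 21723647 estimated counts. Atrx itself was checked first. In CPM, which scales counts to the TMM-normalized library total, WT held 619 and 429, ATRXΔRBR 374 and 308, and ATRX KD 420 and 556. The libraries labelled ATRX KD overlapped WT, and the log2 fold change of -0.15 (SE 0.21, adjusted p = 0.60, edgeR's quasi-likelihood test) did not pass the test, so the RNA does not show the knockdown that the label states. In TPM, Atrx was 233 and 141 in WT and higher, at 331 and 512, in ATRX KD. RSEM gave the gene a transcript length of 2839 and 2405 bases in ATRX KD against 4974 and 6292 in WT. The study assessed its knockdown lines by western blot, and protein was not analysed here. In the deposited list of read files, WT and ATRXΔRBR share a sequencing run and the ATRX KD files carry no run name, so a difference of run and the knockdown cannot be told apart. The fibroblast markers summed to between 7197 and 11556 TPM. Thy1 was listed at 0 in all 6 libraries. Of the 8 tested, 2 rose and 2 fell between ATRX KD and WT, beside 15.2% and 17.8% of all genes. Fn1 (log2 fold change 0.99, adjusted p = 0.0036) and Pdgfrb (0.51, adjusted p = 0.012) rose, whereas Col3a1 fell from 28.1 and 32.2 TPM in WT to 0.36 and 0.75 in ATRX KD, and Dcn from 1.54 and 0.79 to 0 in both. The markers of other cell types summed to at most 1.12 TPM (epithelial), 5.38 TPM (endothelial), 14.6 TPM (haematopoietic) and 0.35 TPM (pluripotent). Among them, edgeR called endothelial Pecam1 (-7.53, adjusted p = 0.0037) and epithelial Cdh1 (-2.99, adjusted p = 0.020) lower in ATRX KD than in WT. In ATRXΔRBR against WT, Col3a1 was called lower (-0.91, adjusted p = 0.023) and Pecam1 higher (1.48, adjusted p = 0.048). Of all genes, 4.07% were called lower and 2.79% higher there. The part of these marker differences in the results was not tested. In such bulk samples, fewer cells that express a gene and less RNA per cell cannot be told apart.

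Levels in WT MEFs are given in TPM, which divides by gene length and so can be compared between genes. Rad21, the closing subunit of the ring, was the highest, with 346 and 439 TPM (392 ± 65.7, mean ± SD, n = 2). Its values did not overlap those of any other gene of the group. The SMC arms followed, with 195 and 278 TPM for Smc1a (237 ± 58.5) and 200 and 225 TPM for Smc3 (213 ± 17.9), and these overlapped each other. Pds5a stood at 107 and 181 TPM (144 ± 52.6) and Ctcf at 97.4 and 115 TPM (106 ± 12.7), again with overlap. The remaining 5 genes lay close together, and each overlapped its neighbour in the order. They were Stag2 (68.6 and 93.4 TPM), Pds5b (73.6 and 81.0 TPM), Stag1 (56.0 and 80.4 TPM), Wapl (52.4 and 68.8 TPM) and Nipbl (47.4 and 63.4 TPM). Among all protein-coding genes, even the lowest of these levels, Nipbl in WT replicate 1, was at the 81st percentile, and Rad21 was at or above the 98th percentile in each library. The 2 libraries of WT differed by more than those of ATRX KD in every gene. Added together, the 10 genes took 0.295% and 0.348% of the counts of the WT libraries. The shares were 0.35% and 0.287% for ATRXΔRBR, and 0.305% and 0.302% for ATRX KD. The libraries of ATRXΔRBR thus differed as much as those of WT, and those of ATRX KD hardly.

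**Figure D1:**
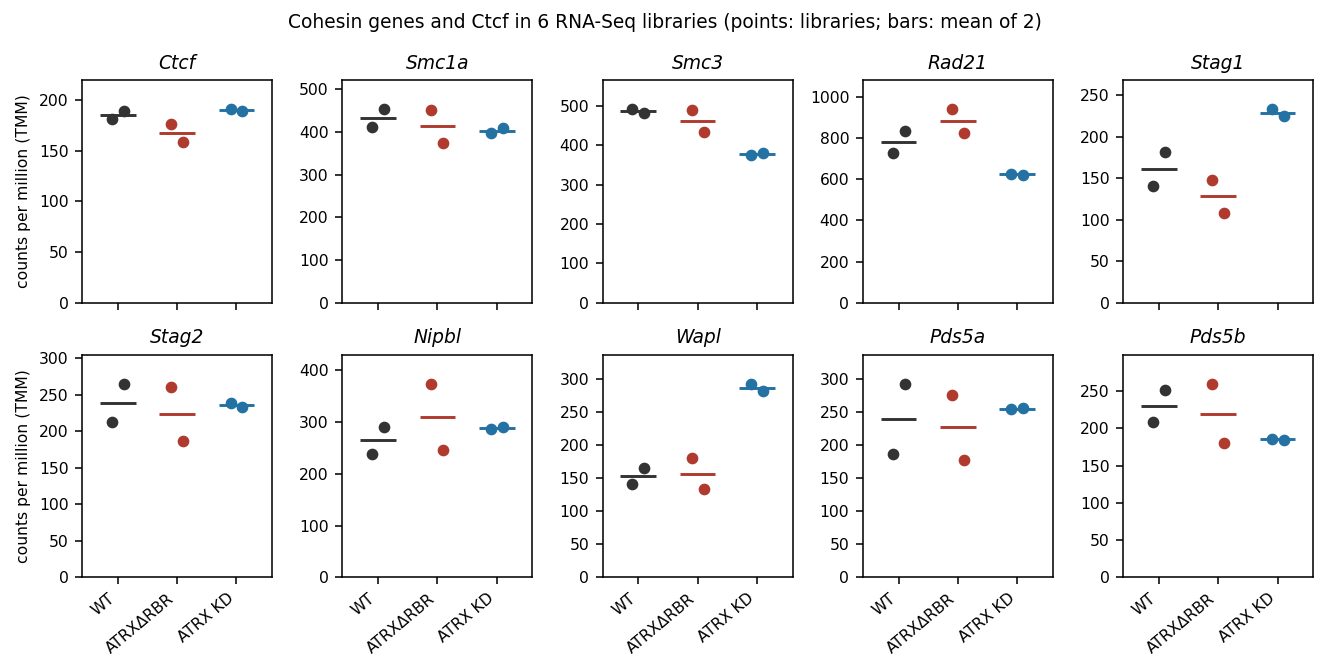
TMM-scaled CPM (y axis, from 0) of each of the 10 genes in WT, ATRXΔRBR and ATRX KD MEFs (x axis). Points are libraries and bars the mean of 2. Wapl and Stag1 lie above WT and ATRXΔRBR in both ATRX KD libraries, and Smc3 and Rad21 below them.

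Between ATRXΔRBR and WT, none of the 10 genes was called. Counts were fitted with edgeR across the 16334 genes whose estimated counts over the 4 libraries exceeded 10, and a gene was called at a Benjamini-Hochberg adjusted p under 0.05. Across all genes 6.85% were called between ATRXΔRBR and WT, 2.79% higher and 4.07% lower, whereas 0 of the 10 were called. An unadjusted p under 0.05 was found for 0 of the 10, beside 3364 of the 16334 genes. DESeq2 also called 0 of the 10. The median log2 fold change of the 10 was -0.09, beside -0.02 over all genes tested. Stag1, one of the alternative docking subunits, had the lowest value. It measured 141 and 182 CPM in WT and 148 and 108 CPM in ATRXΔRBR. One ATRXΔRBR library lay below both WT libraries and the other between them, and the log2 fold change of -0.35 (95% interval -0.85 to 0.15, adjusted p = 0.42) spans 0. Nipbl, the loader, had the highest value. It measured 239 and 290 CPM in WT against 374 and 246 CPM in ATRXΔRBR, where the higher library lies above WT and the other within it, with a log2 fold change of 0.21 (95% interval -0.31 to 0.73, adjusted p = 0.66). For Rad21 the values were 727 and 837 CPM in WT and 941 and 827 CPM in ATRXΔRBR, with a log2 fold change of 0.16 (95% interval -0.22 to 0.54). Ctcf measured 181 and 189 CPM against 176 and 159 CPM. Both ATRXΔRBR values of Ctcf lay below WT, but the difference of -0.16 had an interval from -0.54 to 0.22. The other 6 genes lay between -0.11 (Stag2) and 0.01 (Wapl) on the log2 scale. The widest interval belonged to Pds5a, from -0.72 to 0.53. These intervals come from a fit without pairs. When the WT and ATRXΔRBR libraries were paired crosswise, an alternative added after seeing the data, 5585 of the 16334 genes were called in place of 1119. Of the 10 genes 1 was called, Stag1, which was lower in ATRXΔRBR. A share of 1 in 10 does not exceed that of all genes.

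In the libraries labelled ATRX KD, 4 of the 10 genes were called against WT. Wapl and Stag1 rose, and the ring subunits Smc3 and Rad21 fell. These libraries differed from WT across the transcriptome, with 33.0% of 16785 genes called, 15.2% higher and 17.8% lower, so a share of 4 in 10 lies near the background. The median log2 fold change of the 10 was -0.04, beside -0.02 over all genes, and the median size without regard to sign was 0.26, beside 0.53 over all genes. This comparison and that of ATRXΔRBR share their WT libraries.

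Wapl, the factor that releases cohesin (ENSMUSG00000041408, chr14:34673928-34747983, plus strand), had the largest log2 fold change of the 10. The WT libraries held 142 and 165 CPM, those of ATRXΔRBR 180 and 133, and those of ATRX KD 293 and 282. Both ATRX KD libraries lay far above the other 4, which overlapped one another. The rise against WT was 1.81-fold (log2 fold change 0.86, SE 0.12, 95% interval 0.57 to 1.14, adjusted p = 0.0027, edgeR). Against ATRXΔRBR it was 1.78-fold (log2 fold change 0.83, SE 0.15, adjusted p = 0.0037). For this last comparison, 34.7% of 16520 genes were called, 16.2% higher and 18.5% lower. With Wapl up and Nipbl not called (239 and 290 CPM in WT, 286 and 290 CPM in ATRX KD), the ratio of loader to releaser transcripts in TPM was 0.904 and 0.921 for WT, 1.11 and 0.974 for ATRXΔRBR, and 0.543 and 0.559 for ATRX KD. This ratio is taken within a library and does not depend on the scaling between libraries.

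Stag1 (ENSMUSG00000037286, chr9:100597798-100959375, plus strand) measured 233 and 225 CPM in ATRX KD, above the 141 and 182 CPM of WT and the 148 and 108 CPM of ATRXΔRBR, with no overlap. It rose 1.37-fold against WT (log2 fold change 0.46, SE 0.14, 95% interval 0.12 to 0.79, adjusted p = 0.047) and 1.73-fold against ATRXΔRBR (log2 fold change 0.79, SE 0.16, adjusted p = 0.0053). The call against WT is close to the threshold. It was lost with upper quartile scaling (adjusted p = 0.0516), with all 6 libraries in a single fit (adjusted p = 0.0884) and without either ATRX KD library (adjusted p = 0.255 and 0.192). Without WT replicate 1 the value was 0.27 and still called. The call against ATRXΔRBR was kept in each of these settings.

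Among the arms and the closing subunit, Smc3 (ENSMUSG00000024974, chr19:53600398-53645833, plus strand) fell. Its values were 492 and 482 CPM for WT, 491 and 434 for ATRXΔRBR, and 375 and 380 for ATRX KD, where both libraries lay below all 4 others. The log2 fold change was -0.42 against WT (SE 0.10, 95% interval -0.66 to -0.17, adjusted p = 0.022) and -0.34 against ATRXΔRBR, where it was not called (adjusted p = 0.054). Rad21 (ENSMUSG00000022314, chr15:51962240-51991747, minus strand) measured 627 and 623 CPM in ATRX KD, again below all 4 others, which ranged from 727 to 941 CPM. Rad21 fell by 0.37 on the log2 scale against WT (SE 0.11, adjusted p = 0.041) and by 0.55 against ATRXΔRBR (SE 0.12, adjusted p = 0.0072). The calls of Smc3 and Rad21 against WT were lost when either ATRX KD library was left out (adjusted p = 0.319 and 0.297 for Smc3, 0.363 and 0.384 for Rad21), and so was that of Rad21 against ATRXΔRBR (adjusted p = 0.164 and 0.179). The Rad21 call against WT was also lost with all 6 libraries in a single fit (adjusted p = 0.0529) and with the replicate block (adjusted p = 0.0798). In TPM, Rad21 in ATRX KD (353 and 347) overlapped WT (346 and 439), and its difference shrank to -0.154 in mean log2(TPM + 1). Smc3 in TPM stayed below WT (182 and 177 against 200 and 225), with a difference of -0.240. Pds5b, a partner of WAPL, had a value of the same size against WT (-0.37, SE 0.13, 185 and 186 CPM against 209 and 252 CPM), with no overlap, but did not pass the test (adjusted p = 0.065).

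Smc1a, the other arm of the ring (ENSMUSG00000041133, chrX:152016428-152062694), was not called. It measured 412 and 453 CPM in WT and 397 and 408 CPM in ATRX KD, with a log2 fold change of -0.16 (95% interval -0.41 to 0.10, adjusted p = 0.31). Ctcf (ENSMUSG00000005698, chr8:105636568-105682922, plus strand) measured 191 and 189 CPM in ATRX KD, with a log2 fold change of -0.02 against WT (95% interval -0.28 to 0.24). Stag2, Nipbl and Pds5a had log2 fold changes of -0.07, 0.07 and 0.04 against WT, each with an interval that spans 0. On the TPM scale, where the median gene tested differed by 0.17 between ATRX KD and WT, Ctcf, Smc1a and Stag2 had positive differences (0.26, 0.25 and 0.17), so that their direction depends on the scaling.

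**Figure D2:**
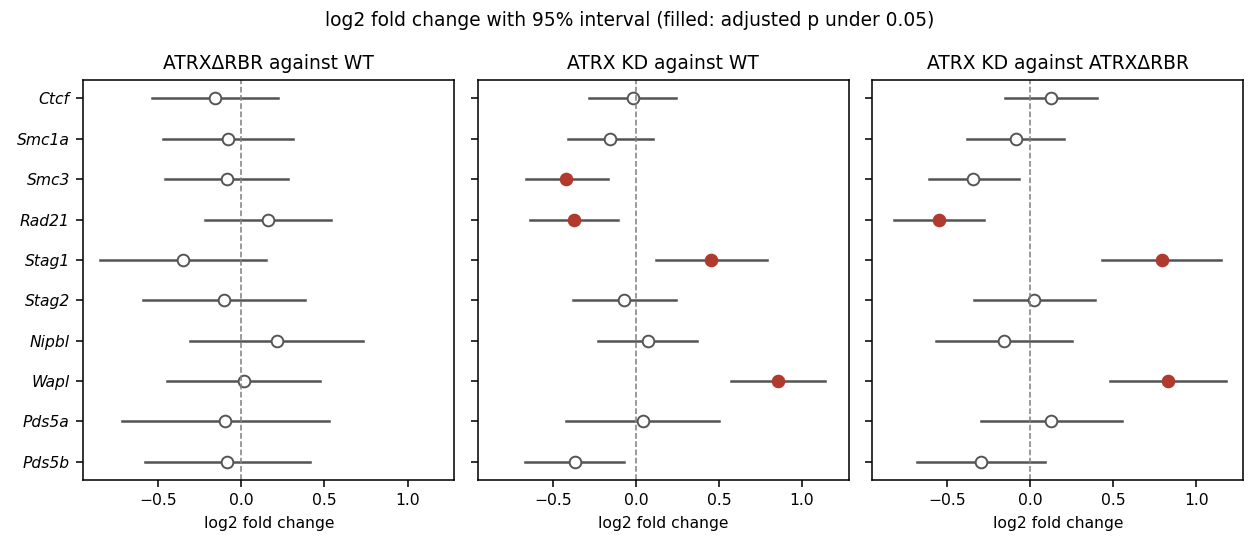
The log2 fold change (x axis) of each of the 10 genes (y axis) in the 3 comparisons, with its 95% interval as a line. Filled points passed an adjusted p under 0.05: none between ATRXΔRBR and WT, Smc3, Rad21, Stag1 and Wapl between ATRX KD and WT, and Rad21, Stag1 and Wapl between ATRX KD and ATRXΔRBR.

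These 4 calls stand beside a shift with transcript length. The expressed protein-coding genes were grouped by RSEM transcript length. The longest 25% (over 3751 bases) had a median log2 fold change of 0.37 between ATRX KD and WT. Of these, 42.5% were called higher and 6.34% called lower. The shortest 25% had a median of -0.40. Between ATRXΔRBR and WT these medians were 0.12 and -0.11. The transcripts of 7 genes of the group, all except Ctcf, Smc1a and Pds5a, belong to the longest 25%. Among these, the ATRX KD against WT value of Wapl was at the 83.2 percentile and that of Stag1 at the 56.5 percentile, near the middle of transcripts of like length. Those of Smc3, Rad21 and Pds5b were at the 6.61, 7.52 and 7.74 percentiles. Against ATRXΔRBR, Wapl stood at the 91 percentile, Stag1 at the 89.2 percentile and Rad21 at the 7.17 percentile. The part of the length shift in the calls was not tested.

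Stag1 and Stag2 encode alternative subunits, so the share of Stag1 in their sum describes the transcript pool from which the ring is built. In TPM, Stag1 made up 45.0% and 46.3% of the sum for WT (45.6% ± 0.899, SD, n = 2), 40.5% and 39.1% for ATRXΔRBR (39.8% ± 0.958), and 54.0% and 54.7% for ATRX KD (54.3% ± 0.476). The 3 genotypes did not overlap, with ATRXΔRBR lowest and ATRX KD highest. On this scale the balance passed from more Stag2 to more Stag1 in ATRX KD only. From counts, which are not divided by length, the shares were 40.3%, 36.4% and 49.3%, in the same order. Groups of 2 libraries cannot reach p under 0.05 in an exact permutation test of a single value (the smallest two-sided p is 0.333), so no test was made. For the PDS5 pair, the share of Pds5a in TPM was 59.1% and 69.1% for WT, 66.3% and 62.4% for ATRXΔRBR, and 71.6% and 69.7% for ATRX KD. The ATRXΔRBR values lay within the WT range, and the ATRX KD values just above it. Within the ring, Rad21 exceeded Smc3 in TPM by a ratio of 1.73 and 1.95 (WT), 2.16 and 2.2 (ATRXΔRBR), and 1.94 and 1.96 (ATRX KD). The ratio of Smc1a to Smc3 was 0.977 and 1.23 for WT, 1.16 and 1.09 for ATRXΔRBR, and 1.5 and 1.58 for ATRX KD. In TPM, the arms of the ring were thus near an equal level in WT and ATRXΔRBR and differed most in ATRX KD. This depends on length, as the RSEM length of Smc1a was 3965 and 3379 bases in WT and 3228 and 3219 in ATRX KD. In CPM, which is not divided by length, Smc1a stood at 397 and 408 and Smc3 at 375 and 380 in ATRX KD. The WT values were 412 and 453 CPM for Smc1a and 492 and 482 CPM for Smc3.

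**Figure D3:**
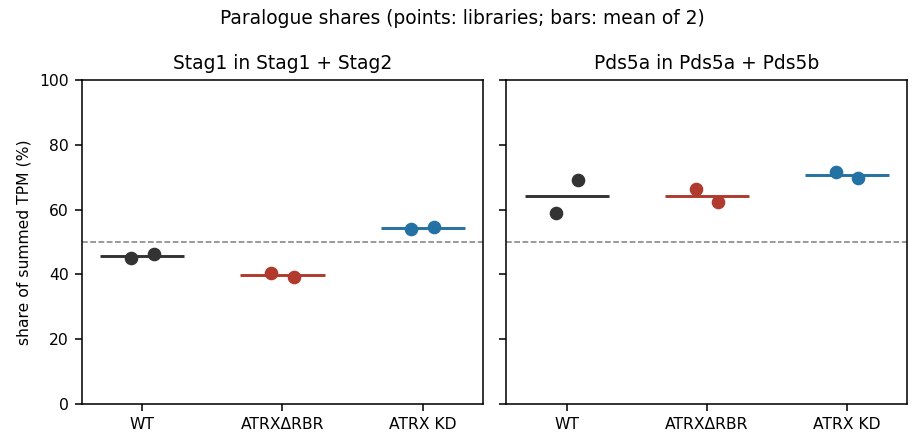
Share of Stag1 in the summed TPM of Stag1 and Stag2 (left) and of Pds5a in that of Pds5a and Pds5b (right), in percent (y axis), by genotype (x axis). Points are libraries, bars the mean of 2, and the dashed line 50%. The Stag1 share is lowest in ATRXΔRBR (39.1% and 40.5%) and above 50% in ATRX KD alone. By counts, which are not plotted, it is 49.4% and 49.2% in ATRX KD.

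Other genes of the same pathways were read from the same fits. Of 16 further genes of the cohesin cycle, 12 were tested, and 5 were called between ATRX KD and WT, beside 33.0% of all genes. Of these, 3 rose: Haspin, the kinase of histone H3 at the centromere (log2 fold change 0.91, adjusted p = 0.0050), Sgo2a, a shugoshin that protects centromeric cohesin (0.83, adjusted p = 0.0052), and Esco2, which acetylates SMC3 (0.46, adjusted p = 0.039). Cdca5, the sororin that antagonizes WAPL (-0.50, adjusted p = 0.030), and Pttg1, the securin that restrains separase (-0.68, adjusted p = 0.048), fell. Their median log2 fold change was 0.11. Against ATRXΔRBR, 2 were higher in ATRX KD, Haspin (1.02, adjusted p = 0.0010) and Esco1 (0.70, adjusted p = 0.029), and 0 were lower, beside 16.2% and 18.5% of all genes.

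Of the 14 genes of condensin and the SMC5/6 complex, relatives of cohesin, all were tested, and 3 rose and 6 fell between ATRX KD and WT, beside 15.2% and 17.8% of all genes, with a median of -0.36. All 4 non-SMC subunits of the SMC5/6 complex on the list fell, among them Nsmce1 (-1.25, adjusted p = 0.0076), Nsmce2 (-0.73, adjusted p = 0.0058) and Nsmce4a (-0.66, adjusted p = 0.0065). The transcripts of these 3 belong to the shortest 25% (under 1589 bases), in which 39.6% of genes were called lower. The part of length in their fall was not tested. The SMC subunits of the same complex did not fall with them. Smc6 rose (0.34, adjusted p = 0.049) and Smc5 was not called (-0.32, adjusted p = 0.23). In condensin, Ncaph2 (-0.59, adjusted p = 0.0082) and Ncapd2 (-0.47, adjusted p = 0.016) fell, whereas Ncaph rose (0.54, adjusted p = 0.013). Against ATRXΔRBR, 2 rose and 4 fell, beside 16.2% and 18.5% of all genes. Among genes that work with CTCF, Chd8, a chromodomain helicase that binds it, rose between ATRX KD and WT (1.33, adjusted p = 0.00069), and 0 fell by edgeR or DESeq2. Against ATRXΔRBR, edgeR called 3 of the 10 tested higher in ATRX KD and 1 lower, beside 16.2% and 18.5% of all genes. DESeq2 called 2 higher and 1 lower. By edgeR, Chd8 (1.03, adjusted p = 0.0013), Patz1 (0.42, adjusted p = 0.045) and Yy1 (0.36, adjusted p = 0.044) were higher. Maz (-0.51, adjusted p = 0.022) was lower. The calls of Patz1 and Yy1 are close to the threshold. Between ATRXΔRBR and WT, edgeR and DESeq2 called 0 genes of any of these 3 lists, beside 6.85% of all genes by edgeR. An unadjusted p under 0.05 in edgeR was found for 1, 1 and 0 of them, beside 3364 of 16334 genes.

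ATRX peaks were looked for within 2 kb of the outermost transcription start site (TSS) of each gene and over its body. Coordinates are those of GRCm38. Smc3 was the gene of the group with an ATRX peak at the TSS in both WT libraries, at chr19:53599928-53600074 in replicate 1 and chr19:53599973-53600251 in replicate 2, and it had none in either ATRXΔRBR library. Among expressed protein-coding genes, 7.19% had an ATRX peak at the TSS in both WT libraries and 6.11% in both ATRXΔRBR libraries, where the group had 0. The first Smc3 peak covers 147 bp from 470 to 324 bp before the TSS, outside the gene, and shares 102 bp with the second. Its sequence is printed because no other outermost start of the group had a peak in both WT lists. Runs of 4 or more G or C are in capitals here and in the promoters that follow.

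Smc3 ATRX peak of WT replicate 1, plus strand: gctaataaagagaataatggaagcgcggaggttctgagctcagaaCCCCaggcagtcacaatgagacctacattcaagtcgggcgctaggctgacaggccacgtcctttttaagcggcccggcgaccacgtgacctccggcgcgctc

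Of the other genes, Ctcf, Rad21, Nipbl and Wapl had an ATRX peak at the outermost TSS in a single list, and Smc1a, Stag2, Pds5a and Pds5b had none over the gene or its start. In WT replicate 1, Ctcf had a peak 168 bp past its TSS (chr8:105636631-105636842), at a −log10 q-value of 1.04. In ATRXΔRBR replicate 1, Wapl (chr14:34673557-34674033), Rad21 (chr15:51991739-51992026) and Nipbl (chr15:8445394-8446860) had peaks that were in neither WT list. The ATRXΔRBR replicate 2 list had none at any of the 10 genes. The group therefore had 2 and 1 genes with a peak at the TSS in the WT lists and 3 and 0 in the ATRXΔRBR lists. The shares of expressed genes in these lists differed in the same way, with 23.6% and 11.1% in WT and 27.8% and 9.39% in ATRXΔRBR. Over the gene, the group had 3 and 1 in WT and 4 and 0 in ATRXΔRBR. The shares of expressed genes were 28.3% and 15.3%, and 30.4% and 14.6%. Nipbl had a peak inside the gene in WT replicate 1 (chr15:8441016-8441523) and another in ATRXΔRBR replicate 1 (chr15:8438978-8439552). Their midpoints lay 3194 and 5198 bp past the TSS. Wapl starts 165 bp from the lncRNA 5830448L01Rik on the opposite strand, so its peaks cannot be assigned to 1 of the 2 starts. The same holds for Smc1a, 133 bp from Ribc1. Smc3 has an opposite-strand start of AC137853.1 at 987 bp, and its ATRX peaks in WT lie between these starts. Opposite-strand starts also lie near Ctcf (Agrp at 825 bp and Gm5914 at 917 bp) and Stag2 (Gm37564 at 864 bp). The number of genes with a peak differed as much between replicates as between genotypes.

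At Stag1 the choice of start matters. The outermost annotated start (chr9:100597798) belongs to a single transcript of 17, whereas 10 transcripts begin within 500 bp of the RefSeq start at chr9:100643448, which lies 45.6 kb further into the gene. ATRX peaks lay just before this inner start in both WT lists (chr9:100642378-100643420 and chr9:100642423-100642798) and in ATRXΔRBR replicate 1 (chr9:100642271-100642452), ending 28, 650 and 996 bp before it. None was listed in ATRXΔRBR replicate 2. With the start of any annotated transcript, 2 of the 10 genes, Smc3 and Stag1, had ATRX in both WT libraries and 0 in both ATRXΔRBR libraries.

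The RefSeq promoter table (GRCm38.p6) matched 7 of the 10 genes, all except Rad21, Stag2 and Nipbl. The 250 bases before the start are shown for 4 of them. Smc3 and Stag1 are shown for the ATRX peaks near these starts in WT, and Ctcf for its many runs of G or C. Wapl is shown for its peak in ATRXΔRBR replicate 1 and its rise in ATRX KD. The WT ATRX peaks cover 106 of the 250 Smc3 bases in replicate 2 only. They cover 223 of the 250 Stag1 bases in replicate 1 only. In the other WT replicate the peak ends before the printed stretch. Each is written on the coding strand, which is the plus strand for all 4.

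Smc3, chr19:53600146-53600395: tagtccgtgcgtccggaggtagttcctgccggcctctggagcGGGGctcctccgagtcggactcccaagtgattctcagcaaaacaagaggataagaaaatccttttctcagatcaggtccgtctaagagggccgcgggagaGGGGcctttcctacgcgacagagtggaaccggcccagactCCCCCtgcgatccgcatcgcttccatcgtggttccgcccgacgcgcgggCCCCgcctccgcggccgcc
Stag1, chr9:100643198-100643447: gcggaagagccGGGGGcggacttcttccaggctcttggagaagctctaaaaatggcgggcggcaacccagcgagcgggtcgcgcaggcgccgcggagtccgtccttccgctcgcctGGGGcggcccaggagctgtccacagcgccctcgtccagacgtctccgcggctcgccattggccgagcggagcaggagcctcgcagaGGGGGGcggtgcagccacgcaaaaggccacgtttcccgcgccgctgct
Wapl, chr14:34673678-34673927: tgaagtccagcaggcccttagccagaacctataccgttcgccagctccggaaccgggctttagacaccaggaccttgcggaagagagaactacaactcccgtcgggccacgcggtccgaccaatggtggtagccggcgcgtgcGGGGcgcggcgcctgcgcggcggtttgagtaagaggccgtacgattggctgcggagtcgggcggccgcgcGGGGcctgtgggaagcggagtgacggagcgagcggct
Ctcf, chr8:105636288-105636537: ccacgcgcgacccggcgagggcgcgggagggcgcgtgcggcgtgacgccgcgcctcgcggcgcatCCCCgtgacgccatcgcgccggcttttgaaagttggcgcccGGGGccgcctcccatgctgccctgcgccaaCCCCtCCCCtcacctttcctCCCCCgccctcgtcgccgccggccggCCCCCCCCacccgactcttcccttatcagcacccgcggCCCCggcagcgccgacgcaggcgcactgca

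The promoters were rich in G and C. The GC content of the 7 stretches ranged from 56.8% (Smc1a) to 80.4% (Pds5a), with a median of 71.2% against 60.8% for expressed protein-coding genes and 52.0% for all 27025 genes of the table. The median number of CG pairs was 32, against 17 in expressed and 6 in all genes. The letters GGGG, counted on both strands with overlaps, were found in all 7, as in 93.7% of expressed and 82.6% of all genes. Their number differed widely, from 2 in Wapl and 5 in Smc3 to 9 in Pds5a and 12 in Ctcf, beside a median of 5 in expressed genes. The Smc3 peak printed above holds 1. CGCG was found in all 7 (69.0% of expressed and 34.0% of all genes), CCCTC on either strand in 5 (70.4% and 59.7%), and TATAAA on either strand in 0 (5.34% and 13.0%). CCCTC and the G runs can overlap, and these matches describe letters and not binding sites.

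**Figure D4:**
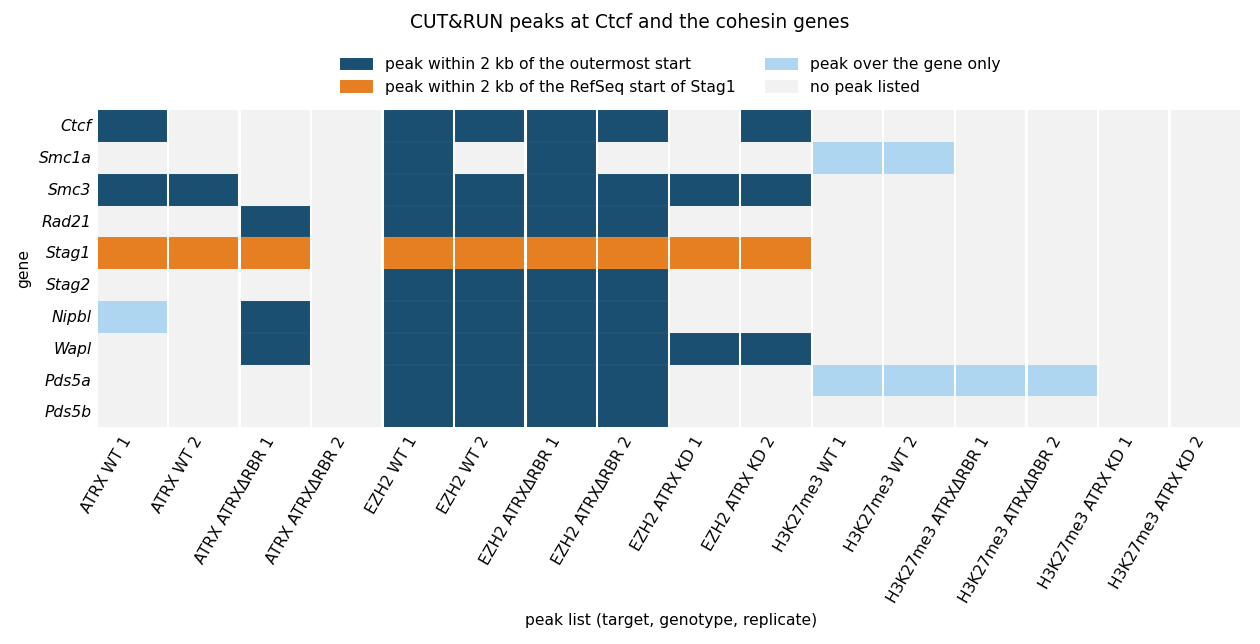
Called peaks at each of the 10 genes (y axis) in the 16 CUT&RUN lists (x axis, by target, genotype and replicate). Dark blue marks a peak within 2 kb of the outermost start, orange a peak near the RefSeq start of Stag1, and light blue a peak over the gene only. EZH2 fills most of the WT and ATRXΔRBR columns, ATRX few, and H3K27me3 marks the bodies of Smc1a and Pds5a alone.

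EZH2 was listed at nearly all of these promoters. In WT as in ATRXΔRBR, both libraries listed EZH2 at the TSS of the same 8 genes: Ctcf, Smc3, Rad21, Stag2, Nipbl, Wapl, Pds5a and Pds5b. Smc1a had one in replicate 1 of each genotype, and Stag1 none at the outermost start. This is the common state of expressed genes in these lists, of which 76.8% had a peak in both WT libraries and 58.2% in both ATRXΔRBR libraries. At the inner start of Stag1, EZH2 was listed in all 6 libraries, with peaks of 991 to 1614 bp. In ATRX KD, Smc3 and Wapl had a peak in both libraries, Ctcf had one in replicate 2, and the other 7 had none at the outermost start. Among expressed genes, 26.8% had one in both ATRX KD libraries. Wapl, whose RNA was highest in ATRX KD, had EZH2 over its start in every list, and each of these peaks covered all 250 bases of the promoter printed above. The ATRX KD lists were shorter throughout, with 5376 and 7093 EZH2 peaks against 22316 and 18351 in WT. Read depth per library is not known from the lists, and its part in this was not tested. The fold enrichment of single peaks was not compared between lists.

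H3K27me3, the mark that EZH2 deposits, was not listed at the outermost start of any of the 10 genes in any of the 6 libraries. Expressed genes rarely carried it there, with 2.3% in both WT libraries, 3.88% in both ATRXΔRBR libraries and 0.602% in both ATRX KD libraries. Over the gene bodies, 8 of the 10 genes had none. Pds5a had a single peak of 335 to 753 bp close to its 3′ end, with its midpoint 89663 to 89843 bp from the TSS, in all 4 WT and ATRXΔRBR lists and none in ATRX KD.

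Smc1a, which lies on the X chromosome, was different. In WT replicate 1, 8 H3K27me3 peaks covered 33.2% of its body, and in WT replicate 2, 10 peaks covered 52.6%. They began 13.2 and 5.3 kb from the TSS and ran past the 3′ end. The peaks were weak, with fold enrichments between 2.93 and 3.91 and −log10 q-values between 1.11 and 2.36. Neither ATRXΔRBR list and neither ATRX KD list held a peak over the gene. The absence in ATRXΔRBR stood beside a coverage of the whole X chromosome of 3.13% and 3.86% in WT and 4.25% and 3.17% in ATRXΔRBR. In ATRX KD the X chromosome was covered to 0.11% and 0.103%, so that an absence at Smc1a there is part of far shorter lists. Smc1a was 1 of 14 among 272 expressed protein-coding X-linked genes with at least 25% of the body covered in both WT lists, and 1 of 6 of these without a peak in both ATRXΔRBR lists. On the autosomes, 4 of 29 such genes had none in ATRXΔRBR. The other 5 X-linked genes, Usp9x, Vbp1, Iqsec2, Kantr and Tspyl2, are named here after their values were seen. No test of the difference was made. Whether the 6 genes lie next to each other was not examined, so they may not be separate cases. Smc1a RNA was not called between these genotypes, with 412 and 453 CPM in WT and 451 and 375 CPM in ATRXΔRBR (log2 fold change -0.08, 95% interval -0.47 to 0.31). Stag2, the other X-linked gene of the group, had no H3K27me3 over its body in any list.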

How the data were processed

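The 6 RNA-Seq libraries and 16 CUT&RUN peak lists of MEFs were grouped by their labels. For RNA-Seq, the authors aligned a directional library with STAR and computed estimated counts, TPM and FPKM per gene with RSEM. The deposited FPKM values were not used, and TPM served for levels. For CUT&RUN, the authors mapped reads to mm10 (GRCm38) with Bowtie2 and ran MACS2 in its broad mode on each library. The deposited fold enrichment is a ratio over local background, and the deposited −log10 p and −log10 q are averages over a peak. The deposited score repeats the −log10 q and was not used. The study gives an approximate read number for its samples as a whole, and the peak lists give no depth per library. The lists made with IgG were not analysed here.

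Estimated counts were rounded and fitted with edgeR 4.0.16 (R 4.3.3, TMM, quasi-likelihood test) over genes whose estimated counts in the 4 libraries compared exceeded 10, with Benjamini-Hochberg adjustment over all genes tested. The design and the alternatives were kept as first written: DESeq2 1.42.0, other scalings, filters on low counts, a joint fit of the 6 libraries, a replicate block and each library left out in turn. The script was tested on simulated data. Levels in CPM use TMM library sizes. Genes were placed with GENCODE M21, the TSS being the outermost start, and a peak counted with 1 bp or more within 2 kb of it. GC content and letters were counted in RefSeq promoters with Python 3.11.15 and pandas 2.3.3. Figures used matplotlib 3.10.9.

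All 10 genes and Atrx were named, and of 3 further lists the genes that passed the test, up to 6 a list by smallest adjusted p. Smc5 and Smc6 were named in addition, beside the other subunits of their complex. In the list of genes that work with CTCF, 1 result is not reported here. The genes and lists were chosen with earlier results of these data known. The 2 libraries of ATRX KD were closer to each other than those of WT or ATRXΔRBR, with a mean chi-square per gene of 3.25 against 30.1 and 24.2, which is above sampling noise, so they were kept as 2.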

Additional observations from a re-analysis of the deposited data

How the results depend on the processing

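The rises of Wapl in both ATRX KD comparisons and of Stag1 against ATRXΔRBR kept their direction and their call under every alternative with a test, the single-library omissions included. The calls of Stag1, Smc3 and Rad21 that were lost are given with the results. Pds5b against WT was called with no filter on low counts (adjusted p = 0.0275) and without either WT library (4.86e-11 and 0.0046). With 1 library left out of a pair, the lone library was assumed to vary like the other genotype, which shows less spread in ATRX KD. Calls gained in this way against WT were those of Smc1a (adjusted p = 0.00277) and Stag2 (0.00483) without WT replicate 1 and Nipbl (0.00922) without WT replicate 2, and Pds5a was called lower without the first (0.00127) and higher without the second (1.04e-06). Against ATRXΔRBR, Smc3 was called without either ATRXΔRBR library. Without ATRXΔRBR replicate 1, Ctcf, Stag2 and Pds5a were called higher, and without replicate 2, Smc1a, Stag2, Nipbl and Pds5b were called lower, so that the direction for Stag2 depends on the library left out.

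The number of genes called between ATRXΔRBR and WT was 1979 with no filter, 597 with at least 10 counts in every library and 1812 with all 6 libraries in a single fit. It ranged from 1055 to 1520 with 1 library left out, from 3193 to 8947 between ATRX KD and WT and from 3089 to 8736 between ATRX KD and ATRXΔRBR. Libraries of the same number did not deviate together (correlations over 13288 genes of -0.513, -0.0703 and 0.091), so the numbers were not taken as pairs. With the replicate block, 1071, 5792 and 6775 genes were called, and the Rad21 call against WT was lost (adjusted p = 0.0798). A crossed pairing of the WT and ATRXΔRBR libraries, added after seeing the data, called 5585 of 16334 genes. Of the 10 genes, Stag1 was the 1 called.

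Small log2 fold changes turned. Without a filter, Wapl was -0.004 in ATRXΔRBR. As differences of mean log2(TPM + 1) and log2(TPM + 0.1), Smc1a was 0.007 and 0.007 in ATRXΔRBR against WT. In ATRX KD against WT, Ctcf was 0.260 and 0.262, Smc1a 0.248 and 0.249, and Stag2 0.165 and 0.167. In ATRX KD against ATRXΔRBR, Smc1a was 0.241 and 0.242 and Nipbl 0.044 and 0.045. With 1 library left out, the ATRXΔRBR against WT value ranged from -0.205 to 0.047 for Smc1a, -0.352 to 0.115 for Stag2, -0.104 to 0.487 for Nipbl, -0.206 to 0.218 for Wapl, -0.429 to 0.256 for Pds5a and -0.355 to 0.156 for Pds5b. The ATRX KD against WT value ranged from -0.058 to 0.002 for Ctcf, -0.068 to 0.21 for Nipbl, -0.253 to 0.388 for Pds5a and -0.227 to 0.085 for Stag2. Against ATRXΔRBR it ranged from -0.201 to 0.03 for Smc1a, -0.186 to 0.261 for Stag2, -0.414 to 0.157 for Nipbl and -0.145 to 0.451 for Pds5a. The cause of these turns was not tested.

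Of the 10 genes, 2 had ATRX at the start of any annotated transcript in both WT libraries and 0 at a q-value of 0.01 or less, with 1 and 2 in single WT lists and 0 and 3 in single ATRXΔRBR lists. EZH2 was at 1 gene in both ATRX KD libraries at a q-value of 0.01 or less. H3K27me3 was at 1 gene, Smc1a, in both WT libraries with any transcript start.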
